A study of Homo sapiens with 24 samples.

Results

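The 10 genes described here are classical targets of p53: CDKN1A, MDM2, CCNG1, ZMAT3, TP53INP1, SESN1, TIGAR, FDXR, TP53I3 and GADD45A. They were chosen by name, as 10 of the 9560 genes on which at least 1 of 4 peak lists places an m6A peak, and their transcripts were found through RefSeq accessions. The lists came from U2OS, a human osteosarcoma line, knocked out for METTL3 (KO) or wild type (WT). METTL3 is the catalytic subunit of the main enzyme that methylates adenosines inside messenger RNA (N6-methyladenosine, m6A). The KO plus UV and WT plus UV cells received UVC at a labelled dose of 50 J, the KO minus UV and WT minus UV cells received none, and the labels give all groups 10 µM BrdU beforehand. RNA was collected after 2 min and selected for poly(A), and m6A-containing RNA was precipitated (IP) and sequenced beside its input. IP libraries numbered 2 for KO plus UV, 3 for KO minus UV, 4 for WT plus UV and 3 for WT minus UV, each with its input, 24 samples in all. The sources used here do not say whether the knockout is 1 clone.

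p53 is a transcription factor that is held at a low level by the ubiquitin ligase MDM2 and accumulates when DNA is damaged. It then activates genes that halt the cell cycle, repair or tolerate damage, adjust metabolism or kill the cell. U2OS cells are widely used to study this response. m6A is deposited in the nucleus while transcripts are made, is often found near stop codons and in 3′ untranslated regions, and can speed the decay of a transcript or alter its splicing and translation.

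Each list covers a condition as a whole and gives the start and end of each peak along 1 RefSeq transcript per member, with no score, read count or depth. Replicate spread could therefore not be measured, and no test between conditions was made. A transcript without a peak in a list was not called there, and its level is unknown. Positions run along the spliced transcript from its first base, so every peak is exonic; the limits of coding and untranslated sequence were not analysed here. RefSeq has 1 transcript for TIGAR and between 3 and 19 for the other members, and isoforms outside the listed transcript were not seen. The lists held 9471 peaks in KO plus UV, 13852 in KO minus UV, 15465 in WT plus UV and 13989 in WT minus UV, an order that matched the number of IP libraries except that KO minus UV and WT minus UV had 3 each. The lists do not measure METTL3, so the knockout was not checked. Of 6 osteoblast lineage markers, RUNX2, COL1A1 and SPARC carried a peak in some list, SP7, ALPL and COL1A2 in none, and 0 of 4 blood markers, 2 of 4 epithelial markers (EPCAM and KRT8) and 1 of 4 neuronal markers (RBFOX3) carried one.

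Of the members' promoters (RefSeq, GRCh38.p14, 250 bases before and 50 after a start site), 16 windows of 8 members were examined. They were searched for the p53 consensus, a pair of adjoining 10-base half-sites that reads the same on both strands, with at most 2 mismatches. Only MDM2 had a match, in overlapping windows of its internal promoter, and 0.649% of 35116 windows of all genes had one. The stretch is shown because it belongs to the element through which p53 is known to drive MDM2, its own inhibitor; the match, in capitals, lies 94 to 75 bases before the nearer of the start sites (chr12:68808903-68808962, plus strand).
MDM2 internal promoter: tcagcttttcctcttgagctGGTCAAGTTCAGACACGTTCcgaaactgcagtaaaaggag
The sense strand of the 50 bases after each start site was also searched for GGACT, the best known form of the m6A consensus. It was found in 1 of the 16 windows, that of ZMAT3, and in 4.90% of all windows. The ZMAT3 stretch is shown because this gene carried a peak near the start of its transcript in both WT lists. GGACT, in capitals, lies at bases 38 to 42 after the start site (chr3:179071760-179071784, minus strand). The sources used here do not say whether the listed ZMAT3 transcript begins at this site.
ZMAT3 start region: gtgggtcgggttGGACTgacttttg
A match is a description of these letters, and no match says only that these letters are not in this window.

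Peaks lay on 1 member in KO plus UV, 5 in KO minus UV, 6 in WT plus UV and all 10 in WT minus UV. Among all 9560 genes the shares with a peak were 57.7%, 72.9%, 83.4% and 74.6% in the same order. The members' counts lay below the share of all genes in 3 lists and above it in WT minus UV. No member had a peak in every list, a pattern held by 41.2% of all genes. The members were chosen with such results known, so these counts are no evidence about p53 targets as a class.

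**Figure D1:**
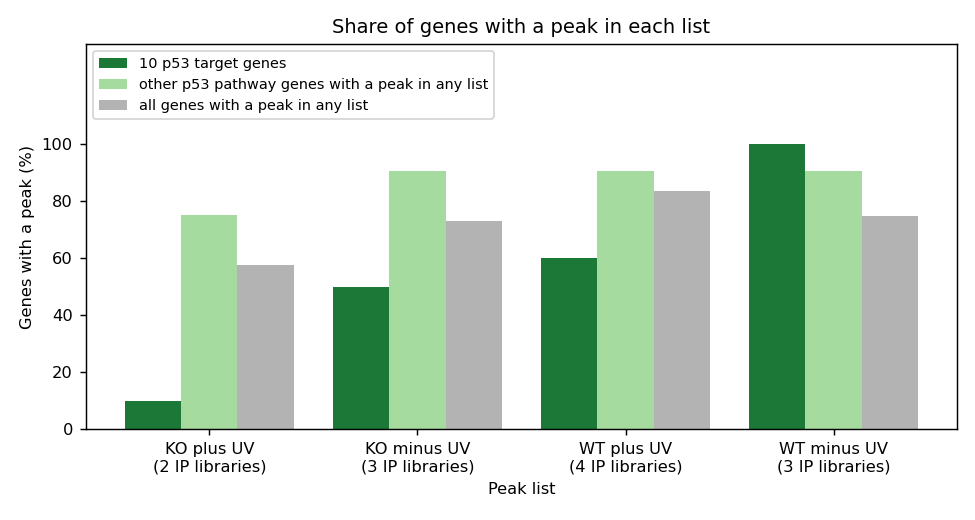
Percent of genes with a peak (vertical axis) in each of the 4 lists for the 10 p53 target genes, the 32 other p53 pathway genes that have a peak somewhere, and all 9560 such genes. The 10 genes are lowest in KO plus UV (1 of 10) and at 10 of 10 in WT minus UV.

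The members carried 1 peak in KO plus UV, 9 in KO minus UV, 12 in WT plus UV and 22 in WT minus UV. Those peaks covered 157, 1736, 2331 and 4092 bases of transcript. Their median width was 157 bases in KO plus UV, where there was 1 peak, 181 in KO minus UV, 186.5 in WT plus UV and 181 in WT minus UV. Medians over all peaks were 176, 182, 189 and 186 bases. Members with a peak averaged 1 peak each in KO plus UV, 1.8 in KO minus UV, 2 in WT plus UV and 2.2 in WT minus UV. All genes with a peak averaged 1.70, 1.97, 1.92 and 1.94. The median number of peaks was the same for members and all genes, 1 in KO plus UV and 2 in each other list. The members' means rest on 1, 5, 6 and 10 genes, so these small differences in means set no pattern.

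**Figure D2:**
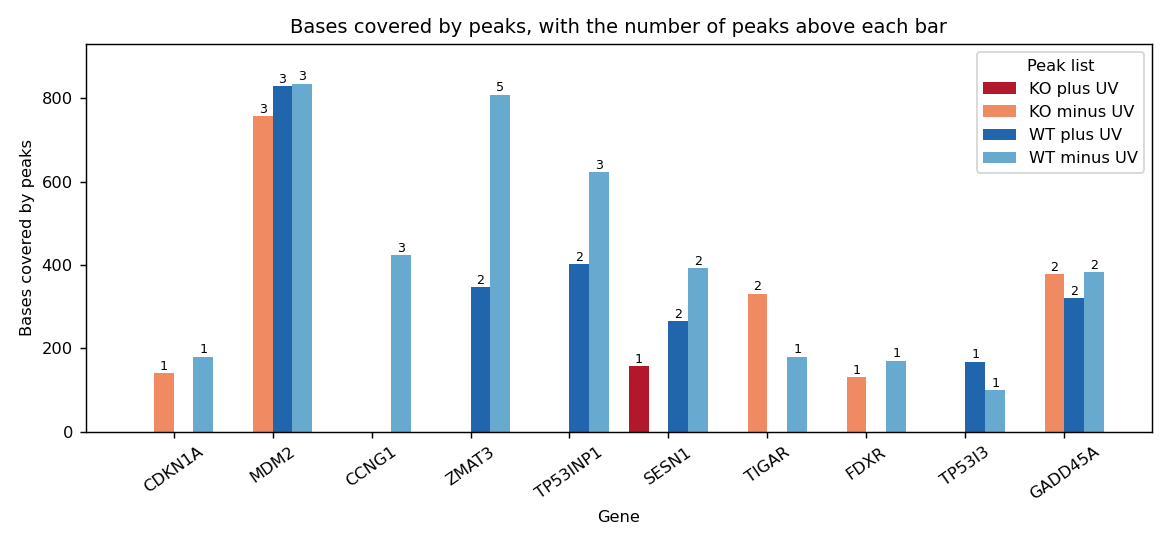
Bases covered by peaks (vertical axis) on each gene in each list, with the number of peaks above each bar; a missing bar means no peak. MDM2 is close to level in 3 lists, CCNG1 has peaks in WT minus UV alone, and SESN1 is the gene with a KO plus UV peak.

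CDKN1A, CCNG1 and GADD45A act on the cell cycle or its checkpoints. CDKN1A encodes p21, the inhibitor of cyclin-dependent kinases that carries out much of the p53 arrest (chromosome 6, 36676463 to 36687332, GRCh38). On its listed transcript, NM_001291549, bases 1491 to 1630 formed the KO minus UV peak and bases 481 to 660 the WT minus UV peak. It had none in KO plus UV and none in WT plus UV. The KO and WT peaks lay 830 bases apart, so CDKN1A carried a peak in both genotypes without sharing a region.

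CCNG1 encodes cyclin G1, which recruits a phosphatase to MDM2 (chromosome 5, 163437571 to 163457640). It carried 3 peaks in WT minus UV, at bases 140 to 280, 1091 to 1272 and 1621 to 1720, and 0 in every other list. Genes with a peak in WT minus UV alone made up 4.40% of all genes, and none of the other p53 pathway genes did so.

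GADD45A encodes a small growth arrest and repair protein that binds PCNA (chromosome 1, 67685201 to 67688334). Its 2 peaks spanned bases 33 to 236 and 848 to 1021 in KO minus UV. In WT plus UV they spanned 44 to 190 and 861 to 1033, and in WT minus UV 42 to 234 and 849 to 1037. It had none in KO plus UV. Both regions were thus present in KO and WT cells left without UV, with centres 3.5 and 8.5 bases apart.

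MDM2 and TP53INP1 act on p53 itself. MDM2 (chromosome 12, 68808172 to 68850686) carried 3 peaks in each list but KO plus UV, which had none. The first lay at 1317 to 1619 in KO minus UV, 1305 to 1680 in WT plus UV and 1304 to 1685 in WT minus UV. The other 2 touched each other end to end and together spanned 3860 to 4313 in KO minus UV, 3862 to 4314 in WT plus UV and 3862 to 4314 in WT minus UV. The border between them fell after base 4069, 4068 and 4071 in those lists. MDM2 was the member whose peaks differed least in position between the WT lists: matching peaks of WT plus UV and WT minus UV shared 98.4% to 98.8% of their joint length. Touching pairs numbered 4.16, 4.63 and 4.59 per 100 peaks in the 3 lists, and the sources used here do not say how such a region came to be divided.

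TP53INP1 encodes a nuclear protein that promotes p53 activity and autophagy (chromosome 8, 94925972 to 94949378). The WT plus UV list placed 2 peaks on it, bases 40 to 241 and 871 to 1070. WT minus UV had 3, bases 30 to 262, 669 to 861 and 862 to 1057. Neither KO list had a peak on it. The peak at 669 to 861 touched its neighbour in WT minus UV and was the one with no counterpart in WT plus UV.

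ZMAT3 encodes an RNA-binding zinc finger protein that p53 induces and that acts on splicing (chromosome 3, 179017223 to 179072513). It had the most peaks of any member in 1 list, 5 in WT minus UV, at bases 42 to 190, 367 to 503, 504 to 713, 1441 to 1588 and 2371 to 2534. In WT plus UV it had 2, at 27 to 150 and 492 to 714, and in both KO lists 0. The peaks present in both WT lists lie within the first 714 bases, and the 2 from base 1441 onward were in WT minus UV alone. The WT minus UV peak at 367 to 503 met the WT plus UV peak over 12 bases. Among genes with exactly 5 peaks in WT minus UV, 9 of 174 (5.17%) had none in KO minus UV, ZMAT3 among them.

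The other members act on redox state and metabolism. SESN1 encodes sestrin 1, a stress protein that restrains mTORC1 (chromosome 6, 108984309 to 109094846). It carried the single KO plus UV peak of the 10 genes, at bases 345 to 501, and none in KO minus UV. The WT plus UV peaks spanned 1 to 107 and 366 to 523, and the WT minus UV peaks 1 to 218 and 361 to 534. The KO plus UV peak matched the second WT region, with its centre 21.5 bases from the WT plus UV one. The peak on the first bases of the transcript was found in WT cells alone and was 111 bases shorter in WT plus UV than in WT minus UV.

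TIGAR encodes a phosphatase that lowers fructose-2,6-bisphosphate and so slows glycolysis (chromosome 12, 4321213 to 4360028). The KO minus UV list placed 2 peaks on it, bases 681 to 861 and 971 to 1120, and the WT minus UV list 1, bases 661 to 840. FDXR encodes ferredoxin reductase, which passes electrons to mitochondrial enzymes (chromosome 17, 74862497 to 74872994). Its KO minus UV peak spanned bases 1651 to 1780 and its WT minus UV peak 1621 to 1790. Neither gene had a peak in KO plus UV or WT plus UV. Both therefore shared a region between the genotypes without UV and had none in either list with UV, a pattern that, with CDKN1A, 217 genes (2.27%) held at the gene level.

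TP53I3 encodes a quinone oxidoreductase linked to p53-induced oxidative stress (chromosome 2, 24077433 to 24084834). Its WT plus UV peak spanned bases 1801 to 1968. Its WT minus UV peak, at 1871 to 1970, had the minimum width of 100 bases. Neither KO list had a peak on it. It was the member whose peaks covered more bases in WT plus UV than in WT minus UV, 168 against 100.

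**Figure D3:**
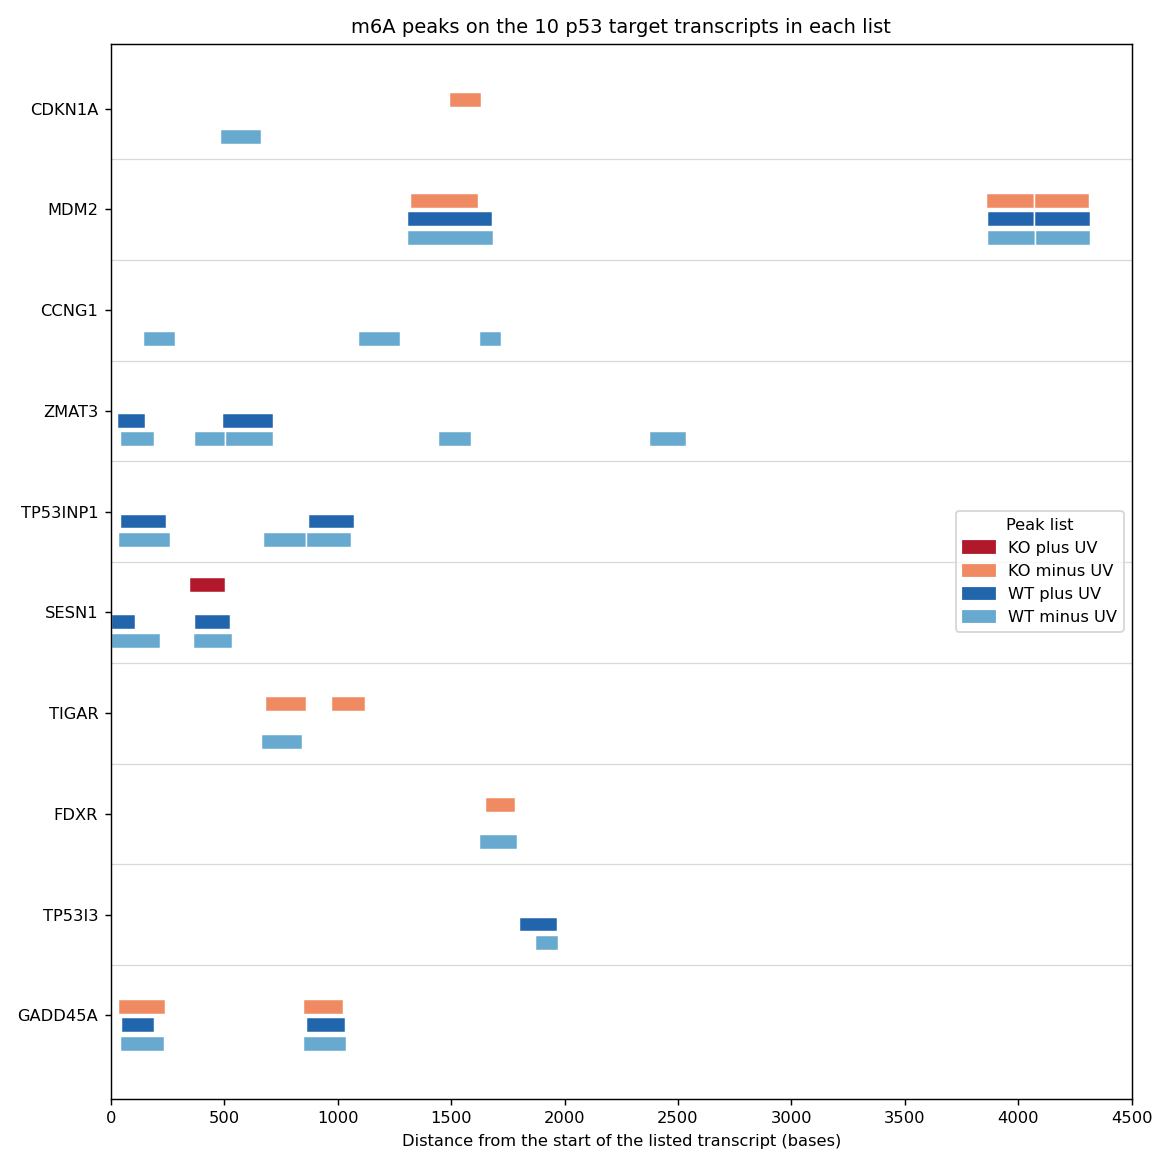
Peaks of each gene drawn to scale along its listed transcript (horizontal axis, bases from the transcript start), 1 row per list in the order KO plus UV, KO minus UV, WT plus UV, WT minus UV from top to bottom. Peaks of MDM2 and GADD45A line up in 3 lists, while the CDKN1A peaks of KO minus UV and WT minus UV lie apart.

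The comparison of WT plus UV with WT minus UV asks which transcripts carry a peak soon after UV damage. Of the 10 members with a peak in WT minus UV, 4 had none in WT plus UV: CDKN1A, CCNG1, TIGAR and FDXR. Over all genes with a peak in WT minus UV, 11.5% had none in WT plus UV. Of the 6 members with a peak in WT plus UV, 0 lacked one in WT minus UV, against 20.8% of all such genes. All 10 members had a WT minus UV peak, so this 0 only restates that count. CDKN1A, TIGAR and FDXR had a single peak in WT minus UV, and 17.2% (95% Wilson interval 16.0 to 18.5) of the 3441 genes with a single peak had none in WT plus UV. CCNG1 had 3 peaks, and 5.09% (3.89 to 6.63) of the 1002 genes with 3 had none. When a gene needed at least 2 peaks to count, CCNG1 alone of the members was present in WT minus UV and absent from WT plus UV. The share of all genes under that setting was not computed.

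At the level of peaks, all 12 WT plus UV peaks on the members had a WT minus UV counterpart, a peak that overlapped by at least 1 base. The 95% Wilson interval of the share without a counterpart ran to 24.3%, for counting error only, and the share over all WT plus UV peaks was 30.0%. All 12 lie on transcripts listed for both conditions, where the share over all transcripts was 17.3%, inside that interval. In the other direction, 9 of 22 WT minus UV peaks (40.9%, 23.3 to 61.3) lacked a WT plus UV counterpart, against 22.4% of all WT minus UV peaks. On the 6 members with peaks in both lists it was 3 of 16, and 15.0% over all transcripts with peaks in both. Of those 3 peaks, 2 were on ZMAT3 and 1 on TP53INP1. Peaks on the same gene are not independent and the members were chosen with results known, so these intervals are no tests against the shares of all peaks. The 9 peaks without a counterpart had a median width of 170 bases and the 13 with one a median of 196, while over all WT minus UV peaks the medians were 160 and 193.

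A peak that began within the first 50 bases was found on GADD45A in KO minus UV and on ZMAT3, TP53INP1, SESN1 and GADD45A in both WT lists. That was 1 of 9 member peaks in KO minus UV, 4 of 12 in WT plus UV and 4 of 22 in WT minus UV, and over all peaks 9.05%, 10.3% and 9.22%. All 4 such peaks of WT minus UV overlapped one of WT plus UV, as did 9 of the other 18 member peaks. Over all transcripts the shares were 79.1% for start peaks and 77.4% for others. Against KO minus UV, 1 of the 4 start peaks and 6 of the 18 others had an overlap, and the shares over all transcripts were 61.6% and 68.5%.

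In KO cells, none of the 5 members with a peak without UV had one with UV. On CDKN1A, MDM2, TIGAR, FDXR and GADD45A, the KO plus UV list placed 0 peaks and the KO minus UV list 9. Over all genes with a KO minus UV peak, 32.6% had none in KO plus UV. Of all KO minus UV peaks, 47.0% had no overlap there, against 9 of 9 on the members. Those 9 peaks lie on the same 5 members, all without a KO plus UV peak, so that count restates their absence. SESN1, the 1 member with a KO plus UV peak, had none in KO minus UV, as was the case for 14.9% of all genes with a KO plus UV peak. Its single peak was without an overlap, against 22.6% of all KO plus UV peaks. MDM2, with 3 peaks in KO minus UV, was among the 209 of 934 such genes (22.4%, 19.8 to 25.2) with none in KO plus UV. TIGAR and GADD45A, with 2 each, were among 535 of 1983 (27.0%, 25.1 to 29.0). With peaks of at least 150 bases alone, CDKN1A and FDXR drop out of KO minus UV and 3 members remain. The share of all genes that drop out was not computed. IP libraries numbered 2 for KO plus UV and 3 for KO minus UV, and the part of that difference in these counts was not tested.

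**Figure D4:**
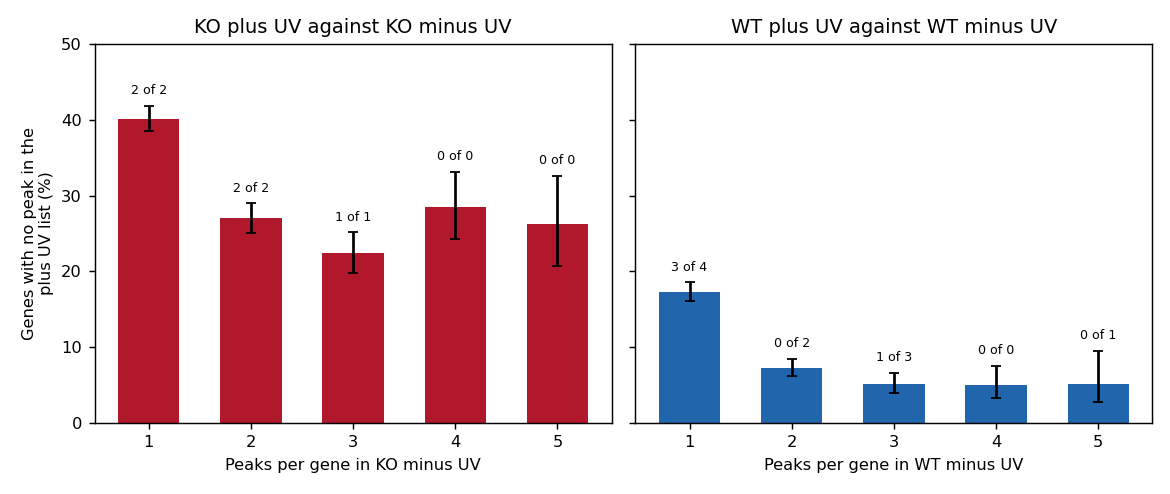
Percent of all genes with no peak in the plus UV list (vertical axis) by the number of peaks the gene had in the minus UV list (horizontal axis), for KO (left) and WT (right); error bars are 95% Wilson intervals and the text above each bar gives how many of the members with that number of peaks had none with UV. Genes with 1 peak are the most often absent, at 40.2% in KO and 17.2% in WT.

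The comparison of KO minus UV with WT minus UV asks which peaks are found in cells labelled as knockout, and both lists came from 3 IP libraries. The members divided evenly. CDKN1A, MDM2, TIGAR, FDXR and GADD45A carried a peak in both lists, and CCNG1, ZMAT3, TP53INP1, SESN1 and TP53I3 carried one in WT minus UV and none in KO minus UV. Over all genes with a WT minus UV peak, 22.0% had none in KO minus UV. None of the 5 members with a KO minus UV peak lacked a WT minus UV peak, against 20.1% of all genes with a KO minus UV peak. Every member had a WT minus UV peak, so this too only restates that count.

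Of the 9 KO minus UV peaks on the members, 2 (22.2%, 6.32 to 54.7) lacked a WT minus UV counterpart, the CDKN1A peak and the second TIGAR peak. Over all KO minus UV peaks the share was 31.1%, and 19.8% on transcripts listed for both conditions, where all 9 lie. Of the 22 WT minus UV peaks, 15 (68.2%, 47.3 to 83.6) lacked a KO minus UV counterpart, against 32.1% of all. Of these 15, 14 lay on the 5 members without a KO minus UV peak. Peaks on the same gene are not independent, so the interval is no test against the share of all peaks. On the other 5 members, 7 of 8 WT minus UV peaks had a KO counterpart. The 1 without (12.5%) compares with 18.3% over all transcripts listed for both. The 8 overlapping pairs had a median distance of 9.25 bases between centres, and the 9983 pairs over all transcripts one of 14 bases. The 8 include an MDM2 peak meeting its neighbour's counterpart over 2 bases, with centres 225 bases apart. On MDM2 the first peak was 79 bases narrower in KO minus UV, at 303 bases, than in WT minus UV, at 382. The 15 include both member peaks of 100 bases, on CCNG1 and TP53I3.

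With UV, KO and WT cells shared a peak on SESN1 alone among the members. MDM2, ZMAT3, TP53INP1, TP53I3 and GADD45A had WT plus UV peaks and no KO plus UV peak, which was so for 37.6% of all genes with a WT plus UV peak. No member had a KO plus UV peak without a WT plus UV one, against 9.84% of all genes with a KO plus UV peak. A KO plus UV counterpart was lacking for 11 of the 12 WT plus UV peaks (91.7%, 64.6 to 98.5) and for 51.0% of all WT plus UV peaks. Of those 11, 1 lay on SESN1 and the others on members without any KO plus UV peak, so the interval is no test here either. The SESN1 peak of KO plus UV overlapped its WT plus UV counterpart over 136 bases, and 19.3% of all KO plus UV peaks had no overlap. The lists come from 2 and 4 IP libraries, and the part of that difference was not tested. Each list enters 2 of the 4 comparisons, so the comparisons share peaks and are not independent of each other.

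Overlapping peaks of all lists merged into 22 regions on the 10 transcripts. None was covered in all 4 lists, against 25.7% of 20811 regions over all transcripts. On MDM2 and GADD45A, 4 regions were covered in every list but KO plus UV, a pattern of 12.4% of all regions. A further 6 were covered in both WT lists and neither KO list, on ZMAT3, TP53INP1, SESN1 and TP53I3 (7.90% of all regions). WT minus UV alone held 7 regions, on CDKN1A, CCNG1, ZMAT3 and TP53INP1 (8.53% of all). Peaks that only touch were not merged, so the TP53INP1 region at 669 to 861 counts apart from its neighbour. Merging peaks within 100 bases gave 21 member regions. KO minus UV alone held 2, on CDKN1A and TIGAR (8.68% of all). On TIGAR and FDXR, 2 regions were covered in both lists without UV (3.70% of all), and 1 on SESN1 in every list but KO minus UV (3.33% of all). No region of the members was covered in KO plus UV alone or WT plus UV alone, which held 3.57% and 10.8% of all regions. Regions in 1 list made up 40.9% of the members' regions and 31.6% of all regions.

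The wider p53 pathway was described with 41 further genes, of which 32 had a peak somewhere. Peaks were found on 24 of these (75.0%) in KO plus UV. Each of the other lists placed peaks on 29 of them (90.6%). Over all genes, shares in KO plus UV, KO minus UV, WT plus UV and WT minus UV were 57.7%, 72.9%, 83.4% and 74.6%. In every list 22 of the 32 carried a peak, a pattern held by 41.2% of all genes. Among them were the p53 inhibitor MDM4, the phosphatase PPM1D and the antiproliferative factor BTG2. The repair factors XPC and DDB2 and the death receptors FAS and TNFRSF10B were also among them. BTG2 carried 5, 5, 3 and 4 peaks in KO plus UV, KO minus UV, WT plus UV and WT minus UV. XPC, which recognises UV damage, carried 3, 2, 3 and 3. None of the 10 members carried a peak in every list.

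In WT cells, PHLDA3, an inhibitor of AKT signalling, carried a peak with UV and none without it, and APAF1, a component of the apoptosome, carried one without UV alone. Each was 1 of the 32 (3.12%), and among all 9560 genes 1661 and 823 did so. PHLDA3 carried 0, 2, 2 and 0 peaks in KO plus UV, KO minus UV, WT plus UV and WT minus UV. In KO cells, PERP and GDF15 had a peak with UV alone, and APAF1, RRM2B, PLK3, PHLDA3, CDIP1, SESN3 and CDKN1B without UV alone. These were 2 and 7 of the 32 (6.25% and 21.9%), and 824 and 2275 of all 9560 genes. Without UV, PLK3, PHLDA3 and CDIP1 had a peak in KO and none in WT, and PERP, DRAM1 and GDF15 in WT and none in KO. Each set was 3 of the 32 (9.38%), and 1403 and 1571 of all 9560 genes did so. With UV, RRM2B, PHLDA3, DRAM1, SESN3 and CDKN1B had a peak in WT and none in KO, and 0 genes the reverse. These were 15.6% and 0% of the 32, and 3000 and 543 of all 9560 genes did so.

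By presence over the 4 lists, APAF1 shared the pattern of CDKN1A, TIGAR and FDXR, with 1 peak in each minus UV list. RRM2B, a p53-induced ribonucleotide reductase subunit, SESN3 and CDKN1B shared that of MDM2 and GADD45A. DRAM1, a lysosomal protein of autophagy, shared that of ZMAT3, TP53INP1 and TP53I3, the WT plus UV list giving it 3 peaks and the WT minus UV list 2. PERP and GDF15 shared the pattern of SESN1, with 1 peak each in KO plus UV. The pattern of CCNG1 was matched by none of them.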

How the data were processed

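Labels put the 24 samples into 8 groups by genotype, UV and library type (IP or input). The submitters' processing notes name TopHat2 2.0.14 and build hg38, and the labels give single-end reads of 50 bases. How peaks were called, and how replicates and inputs were combined, the sources used here do not say. The deposited values are 4 lists of peak starts and ends along RefSeq transcripts, 1 list per condition for all its replicates, with empty name and score fields, so depth is unknown. Positions were read as counted from 1 with both ends included.

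Of 9674 transcripts, 9563 were matched to a gene through a RefSeq table (GRCh38.p14). A counterpart was any peak of the other list that covered at least 1 of the same transcript bases. Shares carry 95% Wilson intervals (scipy 1.17.1, Python 3.11.15) for counting error only. They treat each peak or gene as independent, although several peaks can lie on 1 gene. The code for overlaps was checked on simulated lists. All 10 members were named; of 41 other pathway genes, those with a peak in 1 list of a compared pair alone, and examples of those in every list, were named. The members, gene lists and alternatives were chosen with earlier results of these data known. The promoter searches, peaks at transcript starts, touching pairs and the grouping by peak number were added after the data were examined. Promoters of GADD45A and TP53INP1 were not used here, and 1 gene of the pathway list is not reported here.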

Additional observations from a re-analysis of the deposited data

Results flagged for a closer look

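SESN1 was the member whose covered bases changed in opposite directions with UV in the 2 genotypes. The share of all genes with such a change was not computed. The bases covered differed by 157 between KO plus UV and KO minus UV (157 against 0) and by -127 between WT plus UV and WT minus UV (265 against 392). Each value rests on 1 list, and the difference between the genotypes was not tested.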

How the results depend on the processing

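Of 79 values under other settings for 25 results, 66 stayed within 1.5 times the count or within the 95% interval of the share, and 13 did not. Requiring at least 2 peaks per gene left 0 members with KO plus UV peaks, 3 with KO minus UV peaks and 6 with WT minus UV peaks. Of all genes with a peak, that setting removed 55.2% in KO plus UV, 47.3% in KO minus UV, 47.9% in WT plus UV and 48.2% in WT minus UV. Members absent with UV then numbered 3 in KO and 1 in WT, members present with UV alone in KO 0, and members in KO minus UV but not WT minus UV 1 (TIGAR). Requiring peaks of at least 150 bases left 3 members in KO minus UV, all 3 absent from KO plus UV. It placed 1 member, TP53I3, in WT plus UV but not WT minus UV. Shares over all genes were not computed for peaks of at least 150 bases, or for presence in 1 list alone with at least 2 peaks. Where only transcripts present in both lists of a pair were used, the members' WT minus UV share without an overlap was 18.8% against WT plus UV (15.0% over all such transcripts) and 12.5% against KO minus UV (18.3%). The WT plus UV share was 50% against KO plus UV (25.5%), on SESN1 alone. In each case fewer genes, peaks or transcripts were counted. No paired analysis was possible because each list covers all replicates of its condition, and for the same reason no replicate could be left out.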

Other observations

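Several members have close relatives among the other p53 pathway genes, and the relatives often differed from them in which lists held a peak. How often any 2 genes differ in this way was not computed, and the commonest pattern was held by 41.2% of all genes. SESN2, a stress-induced sestrin, carried 1, 2, 2 and 2 peaks in KO plus UV, KO minus UV, WT plus UV and WT minus UV, whereas SESN3 carried 0, 2, 1 and 4. SESN1 was the one of the 3 sestrins without a peak in KO minus UV. GADD45B carried 2, 1, 1 and 1 peaks in the same order and was present in KO plus UV, where GADD45A was absent, and GADD45G had none in any list. CCNG2, the relative of CCNG1, carried 1, 1, 3 and 2. CDKN1B, which encodes p27, carried 0, 2, 2 and 1, and unlike CDKN1A had peaks in WT plus UV, while CDKN1C had none in any list.

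HIPK2, a kinase that phosphorylates p53, carried 1 peak in KO plus UV, 8 in KO minus UV, 3 in WT plus UV and 5 in WT minus UV, covering 169, 1573, 529 and 1177 bases. It thus had fewer peaks in both lists with UV than in the lists of the same genotype without it. APAF1, RRM2B and SESN3 did so too. PLK2 and PERP went the other way, with more peaks with UV in both genotypes. In KO plus UV, KO minus UV, WT plus UV and WT minus UV, PLK2 carried 3, 2, 3 and 2 peaks and PERP 1, 0, 2 and 1. The shares of all genes with either pattern were not computed. The numbers of IP libraries differ between these lists, and their part was not tested. No test between conditions was possible for any of these genes.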
